A study of Saccharomyces cerevisiae with 25 samples.

Results

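Yeast cells that had already been without phosphate for more than 3 hours were compared at a later and a middle stage of the same starvation course. The late libraries were those sampled 285, 300, 315 and 330 min after transfer to no-phosphate medium, and the middle libraries those sampled at 195, 210, 225 and 240 min, 4 libraries a side out of 25 in the series. Both sides came from one strain of Saccharomyces cerevisiae in the BY4741 background, a haploid laboratory strain of mating type a, carrying pho84pr-YFP (a fluorescent reporter of the PHO84 promoter) and the allele phm3 damp. VTC4, once called PHM3, encodes the enzyme that polymerizes phosphate into vacuolar polyphosphate, and DAmP alleles usually destabilize a transcript by altering its 3′ end. All 8 libraries share both alleles and the medium. The labels give no difference between them but time, and no strain with an intact VTC4 was analysed here. The libraries at 255, 345 and 360 min, where the ADA2 row is low, and the one at 270 min lie outside the comparison. Of 6648 named genes, 4841 had a value in at least 3 of the 4 libraries on each side and were tested.

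In budding yeast the transcription factor Pho4 switches on the PHO regulon when phosphate runs out, among it transporters, secreted phosphatases and the polyphosphate machinery. Nutrient and stress signals also act through the kinases TORC1 and PKA, which promote ribosome production, and through the transcription factors Msn2 and Msn4, which bind the stress response element and switch on protective genes. Cells that slow their growth usually show little ribosome biogenesis and strong stress gene expression, and most of them rest in the G1 phase of the cell cycle.

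Values are log2 RPM, where RPM scales each library to the same total of reads, so a difference of 1 is a doubling. The late libraries held 0.459 to 0.781 M reads and the middle libraries 0.781 to 1.24 M, so depth moved with time. RPM are shares of a library of mixed cells, so fewer cells carrying a transcript and less of it per cell cannot be told apart. STE2, MFA1 and MFA2, genes of mating type a, were listed in all 8 libraries, and the sum of 6 such genes was 3426 to 3673 RPM in late and 3762 to 3847 RPM in middle libraries. Genes of mating type alpha summed to 24.0 to 68.5 RPM in late and 51.4 to 66.5 RPM in middle libraries, with STE3 listed in all 8, SAG1 in 7, MFALPHA1 in 1 and MFALPHA2 in none. HIS3, LEU2 and MET17, which BY4741 lacks, had no value in any of the 25 libraries, whereas URA3, which it also lacks, was listed in 3 of these 8, at 3.39 to 4.71 log2 RPM. ADA2, a subunit of the SAGA coactivator and the gene by which libraries were left out, stood at 10.61, 10.66, 10.84 and 10.46 in late libraries and at 11.03, 11.01, 11.21 and 12.02 in middle libraries (difference −0.67 ± 0.21 SE, limma adjusted p = 0.171). Its late values all lay below its middle values, and its part in the results that follow was not tested. In the libraries left out for it, ADA2 read 8.01 at 255 min, 8.33 at 345 min and 8.45 at 360 min. Its values came out as whole numbers of reads in 8% of libraries, where most genes reach 100%, so the row appears to hold divided reads.

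Few genes passed the test between the middle and the late stage. With limma's moderated test on the 8 libraries and Benjamini-Hochberg adjustment over all 4841 genes, 16 genes rose (0.331% of those tested) and 2 fell (0.0413%) at an adjusted p under 0.05. A log2 difference of at least 1 was reached by 6 of the 16 (0.124% of all tested) and by 1 of the 2 (0.0207%). At an unadjusted p under 0.05 there were 506 higher (10.5%) and 320 lower genes (6.61%). The median difference of all genes was 0.03. These calls hung on single libraries: without the one at 315 min no gene was called (690 at an unadjusted p under 0.05), without 195 min only HSP26 was, and without 240 min 25 rose and 4 fell. Without 300 min 9 genes rose and 1 fell, without 330 min 4 and 3, without 210 min 4 and 0, and without 225 min 7 and 1. They also hung on how the spread was estimated. A limma fit whose prior spread follows the level and is also robust called 147 higher and 79 lower, all 18 genes among them. It is named below by the first of these changes, and their separate parts were not tested. Of the 4489 genes with all 8 values, 237 (5.28%) had every late value above every middle value and 223 (4.97%) every late value below. For a single gene, an exact two-sided permutation test over the 70 ways to split 8 libraries cannot give a p under 0.0286, which is what such a separation gives.

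**Figure D1:**
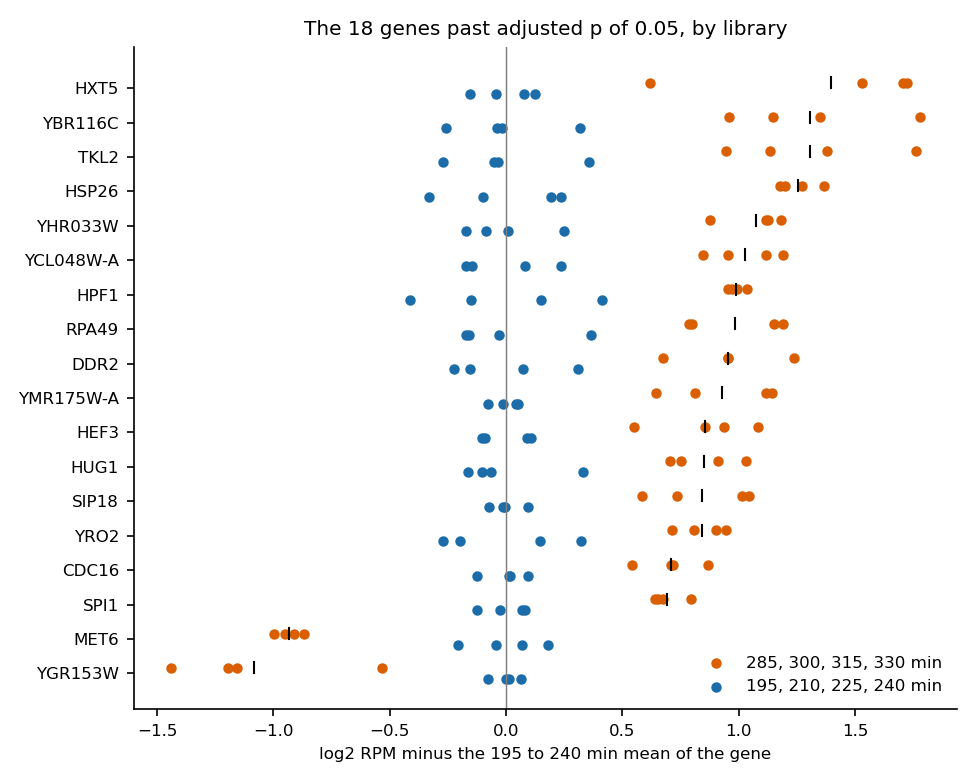
Level of the 18 genes past the adjusted p threshold in each library (x axis, log2 RPM minus the gene's mean over 195 to 240 min, 1 row per gene). Orange points are the 4 late libraries, blue points the 4 middle libraries and black ticks the late means, and the colours do not overlap in any row. The rows YBR116C and TKL2 hold nearly the same values.

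Of the 35 lists, that of general stress genes held the most genes that rose. HSP26, a small heat shock protein that holds unfolded proteins (chromosome II, 382030 to 382674, plus strand), read 11.44, 11.41, 11.60 and 11.51 in late libraries and 9.90, 10.14, 10.43 and 10.47 in middle libraries. It rose 2.38-fold (1.25 ± 0.15 SE, limma adjusted p = 0.0142) and was called in 20 of 23 alternative settings. Its middle values climbed with time and its late values lay close together. DDR2, a small protein induced by many stresses (XV, 231570 to 231755, minus strand), read 9.26, 8.99, 9.26 and 9.55 in late libraries and 8.38, 8.08, 8.62 and 8.15 in middle libraries, and rose 1.94-fold (0.95 ± 0.16, limma adjusted p = 0.0304). SPI1, a cell wall protein typical of resting cells (V, 468370 to 468816, plus strand), read 7.13, 7.11, 7.10 and 7.25 in late libraries and 6.54, 6.53, 6.33 and 6.43 in middle libraries, and rose 1.61-fold (0.69 ± 0.11, limma adjusted p = 0.0304). In each of the 3 all late values lay above all middle ones.

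SIP18, a small hydrophilic protein made under desiccation and salt stress (XIII, 611016 to 611255, plus strand), read 9.04, 8.89, 9.31 and 9.34 in late libraries and 8.30, 8.39, 8.29 and 8.23 in middle libraries. It rose 1.79-fold (0.84 ± 0.13, limma adjusted p = 0.0304). Its neighbour YMR175W-A (XIII, 611314 to 611508, plus strand) rose 1.90-fold (0.93 ± 0.14, limma adjusted p = 0.0226) with values close to those of SIP18 in every library, and whether the rows share reads was not tested. TKL2, the minor transketolase isozyme of the pentose phosphate pathway (II, 474392 to 476437, minus strand), read 5.83, 5.64, 6.46 and 6.08 in late libraries and 4.43, 5.06, 4.65 and 4.67 in middle libraries, and rose 2.47-fold (1.31 ± 0.19, limma adjusted p = 0.0226). The row YBR116C, which the annotation used did not match, read 5.83, 5.64, 6.46 and 6.03 in late libraries and 4.43, 5.0, 4.65 and 4.67 in middle libraries, so the pair is better read as 1 signal.

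HXT5, a hexose transporter that yeast makes when it grows slowly (VIII, 294669 to 296447, minus strand), had the largest difference of any tested gene. It read 7.28, 6.19, 7.10 and 7.29 in late libraries and 5.69, 5.53, 5.65 and 5.42 in middle libraries, a 2.63-fold rise (1.39 ± 0.22, limma adjusted p = 0.0304). The 300 min library held the lowest of its late values. YRO2, a plasma membrane protein related to the heat shock protein Hsp30 (II, 343101 to 344135, plus strand), read 7.30, 7.07, 7.26 and 7.17 in late libraries and 6.16, 6.51, 6.68 and 6.09 in middle libraries. It rose 1.79-fold (0.84 ± 0.15, limma adjusted p = 0.0461), and its call was kept in 9 of 23 alternative settings.

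The upstream sequences of 4 of these genes show what many of the risers shared. Each line gives the 300 bases from 350 to 51 bases before the start codon, read 5′ to 3′ on the gene's strand from the RefSeq annotation of R64, with the stress response element core CCCCT (or AGGGG, its other strand) in capitals. The windows are chrII:381680-381979, plus strand, for HSP26; chrXV:231806-232105, minus strand, for DDR2; chrV:468020-468319, plus strand, for SPI1; and chrVIII:296498-296797, minus strand, for HXT5.
HSP26: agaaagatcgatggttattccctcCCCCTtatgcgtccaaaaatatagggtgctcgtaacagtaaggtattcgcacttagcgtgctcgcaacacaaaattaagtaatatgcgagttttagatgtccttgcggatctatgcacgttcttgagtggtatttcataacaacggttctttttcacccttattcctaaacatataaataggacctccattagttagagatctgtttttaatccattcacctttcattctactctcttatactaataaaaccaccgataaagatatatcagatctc
DDR2: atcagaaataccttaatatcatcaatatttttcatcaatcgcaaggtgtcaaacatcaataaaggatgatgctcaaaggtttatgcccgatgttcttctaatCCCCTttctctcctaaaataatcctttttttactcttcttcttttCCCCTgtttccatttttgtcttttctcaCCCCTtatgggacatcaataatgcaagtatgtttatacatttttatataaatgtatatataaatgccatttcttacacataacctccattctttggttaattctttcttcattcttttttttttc
SPI1: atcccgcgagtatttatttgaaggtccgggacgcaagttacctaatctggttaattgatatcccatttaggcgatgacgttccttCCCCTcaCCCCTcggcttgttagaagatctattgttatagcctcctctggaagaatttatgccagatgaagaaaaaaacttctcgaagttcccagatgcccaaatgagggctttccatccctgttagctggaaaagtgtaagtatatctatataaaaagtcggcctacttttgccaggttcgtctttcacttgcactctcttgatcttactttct
HXT5: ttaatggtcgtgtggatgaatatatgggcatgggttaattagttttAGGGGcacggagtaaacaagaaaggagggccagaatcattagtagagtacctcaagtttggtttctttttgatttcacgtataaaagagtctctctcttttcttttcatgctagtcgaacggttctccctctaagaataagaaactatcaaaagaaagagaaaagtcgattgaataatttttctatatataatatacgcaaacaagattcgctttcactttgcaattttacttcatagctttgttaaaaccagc
DDR2 held 3 copies, SPI1 2, and HSP26 and HXT5 1 each. Of the 15 risers with an annotated window, 10 (66.7%) held the core on either strand, against 22.9% of 6020 protein-coding genes. One of the 10 is YMR175W-A, whose window covers the coding sequence of its neighbour SIP18. YRO2, SIP18, CDC16, HUG1 and RPA49 held none in this window. A match of 5 letters is a description and not a binding site.

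The list of general stress genes as a whole did not move one way. Of its 68 members 59 were tested, 5 rose (TKL2, HSP26, DDR2, SIP18 and SPI1, where 0.331% of all genes rose) and 0 fell (0.0413% of all genes), with a list median of 0.09 beside 0.03 over all genes. Late values lay wholly above middle values for 13 of 58 members with all values and wholly below for 2, against 5.28 and 4.97% of all genes. The core CCCCT stood in 88.1% of the tested members' windows, so it did not set the risers apart within the list. The genes named from here on that did not pass the test were picked from the lists after their values had been seen. FMP16 (0.68 ± 0.13, limma adjusted p = 0.0508), GRE1, a relative of SIP18 (0.80 ± 0.16, limma adjusted p = 0.0574), and MOH1 (0.75 ± 0.16, limma adjusted p = 0.0731) came near the threshold from above.

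Other stress genes had lower late values. AIM17 read 6.35, 5.85, 5.46 and 6.08 in late libraries and 7.48, 6.82, 7.10 and 6.09 in middle libraries (−0.93 ± 0.28, limma adjusted p = 0.151). HXK1, a hexokinase made when glucose is scarce, read 9.23, 8.70, 8.93 and 9.19 in late libraries and 10.33, 9.81, 9.69 and 9.07 in middle libraries (−0.72 ± 0.24, limma adjusted p = 0.178). TMA10 (−0.90) and CYC7, a form of cytochrome c made at low oxygen (−0.65), had differences of the same sign. In all 4 genes the 240 min value reached the late range, so the windows overlapped. HSP12, a membrane-protecting protein, read 12.70, 12.51, 12.84 and 12.64 in late libraries and 13.07, 12.88, 12.70 and 12.23 in middle libraries (−0.04 ± 0.18), and CTT1, the cytosolic catalase, differed by 0.51 ± 0.21 (limma adjusted p = 0.263). Neither passed the test.

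**Figure D2:**
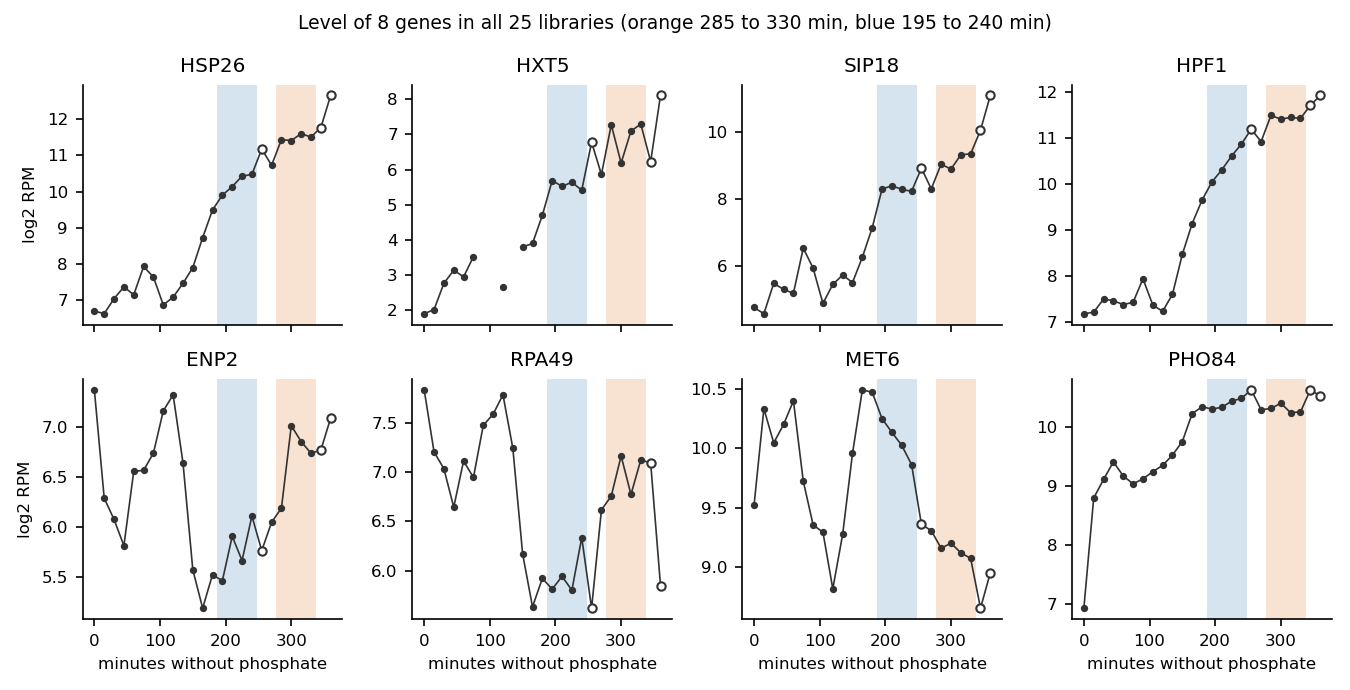
Level of 8 genes (y axis, log2 RPM, a separate scale per panel) against minutes without phosphate for all 25 libraries, with the late window shaded orange, the middle window blue, and open circles for the libraries at 255, 345 and 360 min. HSP26, HXT5, SIP18 and HPF1 are highest at 360 min, ENP2 and RPA49 are lower in the middle window than in the late one and at 0 min, MET6 was lower in the late window, and PHO84 lay between 10.24 and 10.48 in both windows.

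The 4 libraries outside the comparison were not used to choose these genes. At 345 min all 16 risers lay above the range of the middle libraries, at 360 min 14, and at 255 and 270 min 13 each. The 345 min library held 0.147 M reads, and its lowest listed value was 6.09 log2 RPM. Any value listed there for TKL2, YBR116C, HXT5, HEF3 or HUG1 had to lie above the middle range, so these genes add nothing at 345 min. Over all tested genes with a value the share above that range was 56.9% at 345 min, 43.3% at 360 min, 36.6% at 255 min and 30.4% at 270 min. Just 3049 tested genes had a value at 345 min, so its share leaves out genes below its lowest listed value. Many genes thus lay above the middle range at all 4 times, and the parts of depth and of a low ADA2 row were not tested. HSP26 reached 11.77 and 12.66 at 345 and 360 min, and SIP18 10.05 and 11.08. RPA49 and HUG1 were the 2 risers back inside the middle range at 360 min.

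Genes for making ribosomes had the highest median of the 35 lists. Of 120 ribosome biogenesis genes, which process ribosomal RNA and assemble the subunits, 118 were tested and 115 had a positive difference (54.8% of all genes did), with a median of 0.45 beside 0.03 over all genes. None was called (26 in the fit whose prior spread follows the level, where 3.04% of all genes were called higher), while 62 were higher at an unadjusted p under 0.05 (10.5% of all genes). In 16 of 117 the late values lay wholly above the middle ones (13.7%, against 5.28% of all genes). The list median ran from 0.35 to 0.56 over 23 alternative settings. Relative to the middle mean it stood at 0.13, 0.73, 0.46 and 0.54 in the late libraries and at −0.27, 0.12, −0.11 and 0.29 in the middle libraries. The 285 min library thus fell among the middle values, and the other late libraries lay above all 4 of them. Together these genes took 1.69 ± 0.25% of the reads in late libraries and 1.24 ± 0.19% in middle libraries (SD, n = 4 each).

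ENP2, a factor of early 40S subunit assembly, had the list's largest difference. It read 6.19, 7.01, 6.86 and 6.74 in late libraries and 5.47, 5.91, 5.67 and 6.11 in middle libraries (0.91 ± 0.20, limma adjusted p = 0.0780). NOP2, a methyltransferase of ribosomal RNA, read 5.63, 6.73, 6.10 and 6.58 in late libraries and 4.90, 5.60, 5.52 and 5.49 in middle libraries (0.88 ± 0.24, limma adjusted p = 0.140). The RNA helicase DBP7 had a difference of 0.58 ± 0.12 (limma adjusted p = 0.0603), the helicase HAS1 of 0.89 ± 0.27 and the helicase DBP2 of 0.88 ± 0.22. NOP58, a core protein of box C/D small nucleolar particles, differed by 0.63 ± 0.15 and MAK16, needed for the 60S subunit, by 0.62 ± 0.16. UTP22 of the small-subunit processome differed by 0.20 ± 0.16 and PWP1 by 0.34 ± 0.15. None of these passed the test, although the windows did not overlap for ENP2, NOP2, DBP7, NOP58 and MAK16.

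RPA49, a subunit of RNA polymerase I, which transcribes ribosomal RNA, was the gene of ribosome production that did pass (XIV, 181361 to 182608, minus strand). It read 6.76, 7.16, 6.77 and 7.12 in late libraries and 5.81, 5.94, 5.80 and 6.33 in middle libraries, and rose 1.98-fold (0.98 ± 0.16, limma adjusted p = 0.0304). At 0 min in high phosphate it had read 7.83, above every late value. The other Pol I subunits RPA34 (0.59 ± 0.15), RPA14 (0.57 ± 0.14, a row that overlaps YDR157W), RPA43 (0.65 ± 0.23) and RPA190 (0.35 ± 0.20) had positive differences without passing. Of 37 genes of the RNA polymerase I and III machinery 34 were tested, 27 had a positive difference and the median was 0.21.

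The windows before RPA49 and ENP2 carried sequence elements common among ribosome biogenesis genes. They are shown because nearly all of that list (115 of 118 tested) had a positive difference. ENP2 belongs to that list. RPA49 belongs to the RNA polymerase I and III list, in which the elements were not counted. Capitals mark AAAATTTT, the core of RRPE (ribosomal RNA processing element), and GATGAG (or CTCATC, its other strand), the core of PAC (polymerase A and C element). The windows again run from 350 to 51 bases before the start codon in R64, chrXIV:182659-182958, minus strand, for RPA49 and chrVII:781417-781716, plus strand, for ENP2.
RPA49: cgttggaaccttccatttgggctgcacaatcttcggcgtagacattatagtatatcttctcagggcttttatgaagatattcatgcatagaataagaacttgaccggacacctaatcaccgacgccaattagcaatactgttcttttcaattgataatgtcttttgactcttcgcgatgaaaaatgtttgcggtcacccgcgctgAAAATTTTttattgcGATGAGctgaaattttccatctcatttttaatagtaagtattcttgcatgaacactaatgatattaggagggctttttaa
ENP2: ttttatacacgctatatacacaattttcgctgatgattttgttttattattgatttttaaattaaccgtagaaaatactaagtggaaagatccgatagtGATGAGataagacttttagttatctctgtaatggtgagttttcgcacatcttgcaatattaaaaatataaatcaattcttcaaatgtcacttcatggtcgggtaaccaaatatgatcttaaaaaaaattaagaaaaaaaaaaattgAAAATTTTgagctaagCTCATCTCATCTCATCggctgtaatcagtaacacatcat
In ENP2 3 of its 4 PAC cores overlap each other. AAAATTTT stood in 78.8% and GATGAG in 87.3% of the windows of the 118 tested biogenesis genes, against 9.68 and 19.8% of all protein-coding genes. Among the 15 risers AAAATTTT stood in 1 window (6.67%) and GATGAG in 3 (20%).

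Transcripts of the ribosomal proteins themselves differed less. Of 137 tested cytosolic ribosomal protein genes 125 had a positive difference and the median was 0.17, but it was −0.02 with 6 libraries a side (285 to 360 against 195 to 270 min), so its direction depends on the libraries used. None was called. By an unadjusted p under 0.05 9 were higher, below the share of all genes (10.5%), and 6 had late values wholly above the middle ones (4.38%, against 5.28% of all genes), while the fit whose prior spread follows the level called 5 (3.04% of all genes). RPL5, which binds 5S ribosomal RNA, read 8.74, 8.87, 9.03 and 9.24 in late libraries and 8.55, 8.53, 8.50 and 8.55 in middle libraries (0.44 ± 0.13, limma adjusted p = 0.148). By library the list median stood at −0.00, −0.00, 0.21 and 0.43 in late and at 0.21, 0.05, −0.15 and −0.12 in middle libraries. In the libraries with a low ADA2 row it was −1.36 at 255 min, −0.80 at 345 min and −1.02 at 360 min, and at 270 min 0.38. Most ribosomal proteins have a near-identical second gene, so single members such as RPS25B (0.42 ± 0.12, 0% whole reads) are uncertain.

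Mitochondrial ribosomal proteins, which build the ribosome inside the organelle, had mostly negative differences. Of 75 tested genes 58 had a negative difference (45.2% of all genes did) and the median was −0.17. No member was called. At an unadjusted p under 0.05 15 were lower and 1 higher, against 6.61 and 10.5% of all genes. The fit whose prior spread follows the level called 2 lower, where 1.63% of all genes were. In 6 of 71 the late values lay wholly below the middle ones, against 4.97% of all genes. The list median by library lay between −0.22 and −0.13 in late and between −0.13 and 0.12 in middle libraries. MRPL39 (−0.60 ± 0.16, limma adjusted p = 0.136) and MRPL37 (−0.47 ± 0.12, limma adjusted p = 0.122) had late values wholly below the middle ones.

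**Figure D3:**
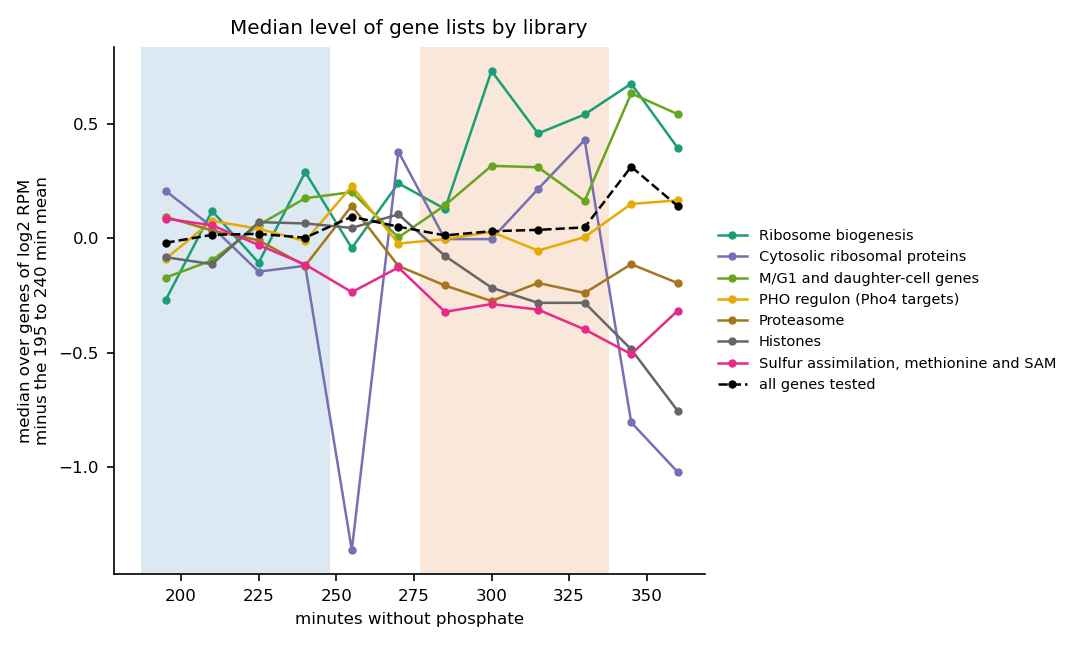
Median level over the genes of 7 lists and of all tested genes (y axis, log2 RPM minus each gene's mean over 195 to 240 min) against minutes without phosphate from 195 to 360 min, with the middle window shaded blue and the late window orange. Ribosome biogenesis and M/G1 genes lie above 0 in all 4 late libraries, sulfur, proteasome and histone genes lie below 0 in all 4, and ribosomal protein genes drop to −1.36, −0.80 and −1.02 at 255, 345 and 360 min.

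Genes of sulfur assimilation and methionine and S-adenosylmethionine (SAM) synthesis stood lower. These genes supply methionine and the methyl donor SAM, and BY4741 relies on methionine in the medium because it lacks MET17. MET6, the methionine synthase that adds the methyl group to homocysteine (V, 339864 to 342167, minus strand), read 9.16, 9.20, 9.12 and 9.07 in late libraries and 10.25, 10.14, 10.03 and 9.86 in middle libraries. It fell to 0.525 of the middle level (−0.93 ± 0.12, limma adjusted p = 0.0158) and was called in 18 of 23 alternative settings. At 0 min it had read 9.52, so the late values lay below that of high phosphate and the middle values above it.

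Of 28 genes of this list 24 were tested and 19 had a negative difference (45.2% of all genes did). By the main test 1 fell (MET6) and 0 rose, against 0.0413 and 0.331% of all genes. At an unadjusted p under 0.05 10 were lower and 0 higher, against 6.61 and 10.5% of all genes. The fit whose prior spread follows the level called 6 lower, where 1.63% of all genes were. The median was −0.32, between −0.38 and −0.22 over the alternative settings. The list median was −0.32, −0.29, −0.31 and −0.40 in late and 0.09, 0.06, −0.03 and −0.11 in middle libraries, with no overlap. SAM2, a SAM synthetase, read 6.68, 6.53, 6.75 and 7.15 in late libraries and 7.87, 7.66, 7.45 and 7.49 in middle libraries (−0.84 ± 0.16, limma adjusted p = 0.0508). MET2, which activates homoserine, had a difference of −0.70 ± 0.13 (limma adjusted p = 0.0508), MET14, the adenylylsulfate kinase, of −0.68 ± 0.13 (limma adjusted p = 0.0574), MET3, the sulfate adenylyltransferase, of −0.45 ± 0.12 and SAM1, the other SAM synthetase, of −0.48 ± 0.14. In each of these the late values lay wholly below the middle ones, as they did in 6 of the 19 members with all values (4.97% of all genes). MUP1, the high-affinity methionine permease, differed by 0.01 ± 0.12.

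Capitals in the window before MET14 (chrXI:439436-439735, minus strand, R64) mark CACGTG, the E-box that the methionine regulator Cbf1 and the phosphate regulator Pho4 can both bind. It is shown as an example of the element that the sulfur and the PHO lists have in common.
MET14: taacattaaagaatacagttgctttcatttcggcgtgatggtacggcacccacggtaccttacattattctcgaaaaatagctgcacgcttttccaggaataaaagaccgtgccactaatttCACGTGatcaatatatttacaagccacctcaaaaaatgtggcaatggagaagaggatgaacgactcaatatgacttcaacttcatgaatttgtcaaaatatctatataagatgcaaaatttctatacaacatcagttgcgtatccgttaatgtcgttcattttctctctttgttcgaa
CACGTG reads the same on both strands and stood in 54.2% of the windows of the 24 sulfur genes, in 65.0% of those of the 20 tested PHO genes and in 4.02% of all protein-coding genes. The window of MET6 held none.

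The PHO regulon showed no common step between the windows. Of 22 Pho4 targets 20 were tested, PHM7 and CTF19 having too few values. None was called, 11 had a positive and 9 a negative difference, and the median was 0.01. At an unadjusted p under 0.05 2 of the 20 were higher, GIT1 and PHO5, where 10.5% of all genes were. Both were called in the fit whose prior spread follows the level (3.04% of all genes were called higher). Late values lay wholly above middle values for 3 of the 20 and wholly below for 2, against 5.28 and 4.97% of all genes. PHO84, the high-affinity phosphate transporter, read 10.31, 10.40, 10.24 and 10.26 in late libraries and 10.31, 10.33, 10.44 and 10.48 in middle libraries (−0.09 ± 0.11, limma adjusted p = 0.713), against 6.93 in high phosphate at 0 min. Part of its reads is uncertain where the gene overlaps the noncoding gene YNCM0001W. PHO89, the sodium-coupled phosphate transporter, differed by 0.18 ± 0.13 and SPL2, which curbs low-affinity uptake, by −0.27 ± 0.13. GIT1, a transporter of glycerophosphoinositol, read 6.45, 6.03, 6.29 and 6.17 in late libraries and 5.43, 6.03, 5.67 and 5.06 in middle libraries (0.69 ± 0.19, limma adjusted p = 0.142).

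Among the phosphatases, PHO5, the main secreted acid phosphatase, read 12.73, 12.92, 12.84 and 12.74 in late libraries and 12.23, 12.46, 12.45 and 12.47 in middle libraries (0.40 ± 0.12, limma adjusted p = 0.144). Its late values lay wholly above its middle values, and it passed in the fit whose prior spread follows the level (limma adjusted p = 5.68e-05). Its relatives PHO11 (−0.16 ± 0.11) and PHO12 (−0.13 ± 0.11) had differences of the opposite sign, and none of the 3 rows held whole reads, so the division between them is uncertain. The vacuolar phosphatase PHO8 (0.08 ± 0.12), the nucleotidase PHM8 (−0.01 ± 0.11) and PHM6 (0.01 ± 0.11) differed by less than their errors. HOR2, a glycerol phosphatase now named GPP2, differed by −0.22 ± 0.12.

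Among polyphosphate genes, VTC4, which carries the DAmP allele, read 7.73, 7.73, 8.06 and 8.04 in late libraries and 7.73, 7.81, 7.6 and 7.75 in middle libraries (0.17 ± 0.13, limma adjusted p = 0.516). The other subunits of its complex differed by 0.15 ± 0.11 (VTC2), −0.08 ± 0.11 (VTC3) and −0.15 ± 0.11 (VTC1), and did not pass. The polyphosphatase PPN1 (−0.05 ± 0.13), the inositol pyrophosphate kinase KCS1 (0.10 ± 0.13) and PHO86, which PHO84 needs to leave the endoplasmic reticulum (0.01 ± 0.11), differed by less than their errors. PHO81, which inhibits the kinase that holds Pho4 inactive, read 8.68, 8.61, 8.63 and 8.07 in late and 8.18, 8.30, 8.25 and 8.22 in middle libraries (0.26 ± 0.15), and the glycerophosphodiesterase GDE1 differed by 0.19 ± 0.13. In the list of signalling, low-affinity transport and polyphosphate turnover 0 of 15 tested genes were called (0.372% of all genes were), and the median was −0.02. At an unadjusted p under 0.05 3 were higher and 0 lower, against 10.5 and 6.61% of all genes. Late values lay wholly above middle values in 2 and wholly below in 0, against 5.28 and 4.97% of all genes. The fit whose prior spread follows the level called 1 higher, where 3.04% of all genes were. PHO4 differed by −0.04 ± 0.20, PHO85 by 0.19 ± 0.14, PHO80 by 0.35 ± 0.17, PHO87 by 0.07 ± 0.17 and PHO90 by 0.33 ± 0.15.

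**Figure D4:**
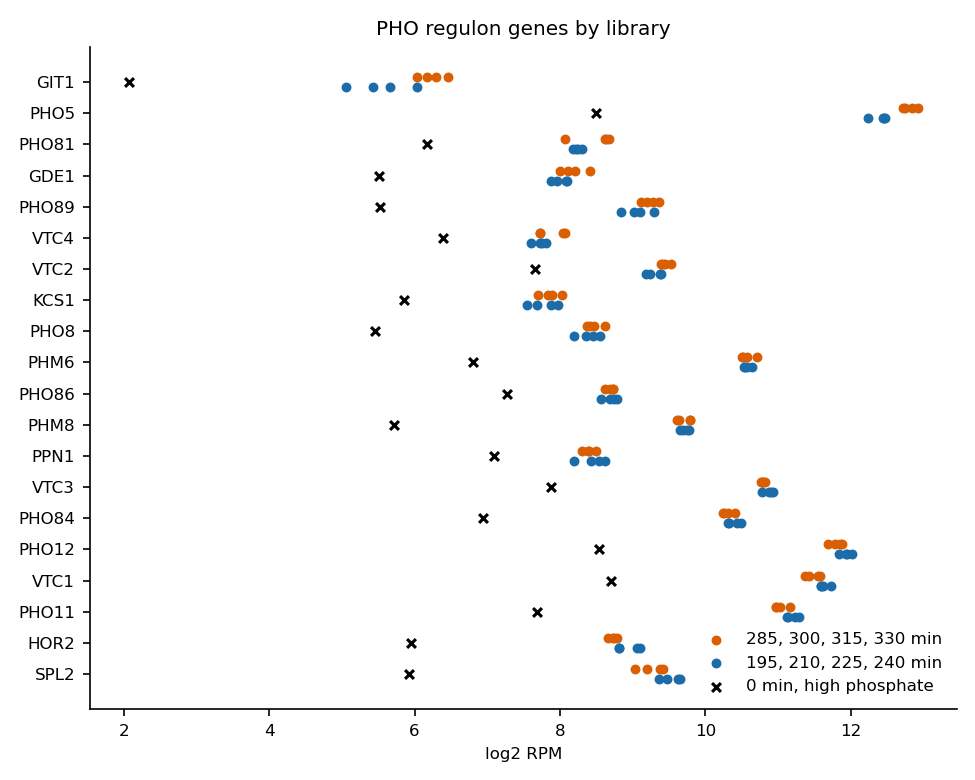
Level of the 20 tested PHO regulon genes (x axis, log2 RPM, 1 row per gene) in the late libraries (orange), the middle libraries (blue) and the library at 0 min in high phosphate (cross). Both windows lie to the right of the cross in every row and overlap in most rows. RPM are not scaled by gene length, so rows are not comparable with each other.

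Proteasome genes, which encode the complex that degrades tagged proteins, stood slightly but evenly lower. Of 35 tested genes 34 had a negative difference, the median was −0.23 and none was called (9 lower and 1 higher at an unadjusted p under 0.05, against 6.61 and 10.5% of all genes, and 4 lower in the fit whose prior spread follows the level, where 1.63% of all genes were). The list median lay between −0.27 and −0.20 in late and between −0.12 and 0.09 in middle libraries. In 12 of the 35 the late values lay wholly below the middle ones, against 4.97% of all genes. RPN1, a scaffold subunit of the regulatory particle, read 7.80, 7.98, 7.90 and 8.02 in late libraries and 8.38, 8.43, 8.35 and 8.35 in middle libraries (−0.45 ± 0.11, limma adjusted p = 0.114). The catalytic subunit PRE3 differed by −0.42 ± 0.11 (limma adjusted p = 0.139). The one member with a positive difference was RPN4, the transcription factor of proteasome genes (0.37 ± 0.14, limma adjusted p = 0.238).

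In the cell cycle lists no member was called. All 10 histone genes had a negative difference (45.2% of all genes did), with a median of −0.25. Of these 4 had an unadjusted p under 0.05 (6.61% of all genes were lower by it), and in 5 the late values lay wholly below the middle ones (4.97% of all genes). The histone median was −0.08, −0.22, −0.28 and −0.28 in late and −0.08, −0.11, 0.07 and 0.06 in middle libraries, so the 285 min library lay within the middle range. HHF2, a histone H4 gene, read 10.58, 10.29, 10.19 and 10.19 in late libraries and 10.72, 10.68, 10.78 and 10.66 in middle libraries (−0.40 ± 0.12, limma adjusted p = 0.163), with reads divided with a near-identical gene. Of 24 tested G1/S genes 20 had a negative difference and the median was −0.19. At an unadjusted p under 0.05 7 were lower and 0 higher, against 6.61 and 10.5% of all genes. In 4 of the 21 with all values the late values lay wholly below the middle ones and in 0 wholly above, against 4.97 and 5.28% of all genes. POL30, the sliding clamp of DNA polymerase, read 7.10, 7.01, 6.75 and 7.15 in late libraries and 7.72, 7.57, 7.82 and 7.71 in middle libraries (−0.70 ± 0.13, limma adjusted p = 0.0508). RNR1, the large subunit of ribonucleotide reductase, differed by −0.47 ± 0.13 and RAD27, which trims Okazaki fragments, by −0.39 ± 0.11.

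Of 24 tested M/G1 and daughter-cell genes 17 had a positive and 7 a negative difference (54.8 and 45.2% of all genes), and the median was 0.23. None was called, 9 were higher and 1 lower at an unadjusted p under 0.05 (10.5 and 6.61% of all genes), and 4 were called higher in the fit whose prior spread follows the level (3.04% of all genes). The list median was 0.14, 0.32, 0.31 and 0.16 in late and −0.17, −0.10, 0.06 and 0.17 in middle libraries, so the windows overlapped for the median. In 5 of the 24 genes the late values lay wholly above the middle ones and in 0 wholly below, against 5.28 and 4.97% of all genes. SCW11, a wall glucanase of daughter cells, read 7.21, 7.29, 7.05 and 7.06 in late libraries and 6.39, 6.29, 6.54 and 6.68 in middle libraries (0.68 ± 0.13, limma adjusted p = 0.0508). DSE3 (0.58 ± 0.14), the glucanase DSE2 (0.51 ± 0.16) and the chitinase CTS1 (0.47 ± 0.16), which separate daughter from mother, had differences of the same sign. The G1 cyclin CLN3 differed by −0.07 ± 0.31 and the repressor RME1 by 0.03 ± 0.14. CDC16, a subunit of the anaphase-promoting complex (XI, 394726 to 397248, minus strand), passed with a 1.64-fold rise (0.71 ± 0.12, limma adjusted p = 0.0304), reading 7.34, 7.01, 7.18 and 7.19 in late libraries and 6.49, 6.57, 6.35 and 6.49 in middle libraries. G2/M genes had a median of 0.08 with 0 of 16 called.

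The other risers came from separate functions. HPF1, a wall mannoprotein that protects wine from haze (XV, 28703 to 31606, minus strand), read 11.50, 11.42, 11.46 and 11.44 in late libraries and 10.05, 10.31, 10.62 and 10.88 in middle libraries, and rose 1.98-fold (0.99 ± 0.17, limma adjusted p = 0.0324). It climbed through the middle window and was level in the late one, and with 4% whole reads its row appears to hold divided reads. HEF3, a second form of translation elongation factor 3 (XIV, 606319 to 609453, plus strand), read 6.43, 6.66, 6.51 and 6.12 in late libraries and 5.68, 5.49, 5.47 and 5.67 in middle libraries, a 1.81-fold rise (0.86 ± 0.14, limma adjusted p = 0.0304). HUG1, an inhibitor of ribonucleotide reductase made after DNA damage (XIII, 158760 to 158966, plus strand), read 6.38, 6.66, 6.54 and 6.33 in late libraries and 5.47, 5.53, 5.96 and 5.56 in middle libraries, a 1.80-fold rise (0.85 ± 0.14, limma adjusted p = 0.0304). All 3 were separated between the windows. HEF3 was the single gene that passed with 6 libraries a side.

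Uncharacterised open reading frames were among the largest differences. YHR033W (VIII, 175548 to 176819, plus strand) read 8.30, 8.54, 8.60 and 8.54 in late libraries and 7.43, 7.33, 7.25 and 7.67 in middle libraries, a 2.11-fold rise (1.08 ± 0.13, limma adjusted p = 0.0142). YCL048W-A (III, 41488 to 41727, plus strand) read 7.89, 7.72, 7.61 and 7.96 in late libraries and 6.60, 6.62, 7.0 and 6.85 in middle libraries, a 2.04-fold rise (1.03 ± 0.14, limma adjusted p = 0.0163). YGR153W (VII, 796092 to 796745, plus strand), named because just 2 genes fell, read 5.07, 4.16, 4.41 and 4.45 in late libraries and 5.61, 5.60, 5.67 and 5.53 in middle libraries. It fell to 0.473 of the middle level (−1.08 ± 0.18, limma adjusted p = 0.0304), and its difference ran from −1.26 to −0.67 over the alternative settings. Its late values rest on few reads, and the one at 330 min equals the floor of 10 reads of that library.

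In sugar uptake and energy lists HXT5 was the member called (1 of 12 tested hexose genes, where 0.331% of all genes rose). Of 18 hexose transport and sensing genes 12 were tested, 9 had a positive difference and the median was 0.31, with the low-affinity transporters HXT1 (0.33 ± 0.14) and HXT3 (0.27 ± 0.13) and the high-affinity HXT2 (0.30 ± 0.12) short of the threshold. The list median was 0.10, 0.38, 0.42 and 0.37 in late and −0.13, 0.04, 0.05 and 0.05 in middle libraries, with no overlap. These medians rest on 10 to 12 listed genes, which differ between libraries. At an unadjusted p under 0.05 4 of the 12 genes were higher and 0 lower, against 10.5 and 6.61% of all genes. In 1 of the 9 with all values the late values lay wholly above the middle ones (11.1%, against 5.28% of all genes). Of 38 respiratory chain and ATP synthase genes 27 had a positive difference (median 0.12, 0 called). At an unadjusted p under 0.05 9 of the 38 were higher and 1 lower, against 10.5 and 6.61% of all genes. In 9 the late values lay wholly above the middle ones (23.7%, against 5.28% of all genes). Their list median lay between 0.09 and 0.17 in late and between −0.07 and 0.07 in middle libraries. ATP7, a subunit of the ATP synthase stalk, differed by 0.45 ± 0.13 and ATP1, the alpha subunit of the synthase, by 0.35 ± 0.11. Of 23 glycolysis and fermentation genes 18 had a negative difference (median −0.10, 0 called), among them the hexokinase HXK2 (−0.46 ± 0.13, limma adjusted p = 0.140) and the pyruvate kinase CDC19 (−0.18 ± 0.11), while TDH1, a glyceraldehyde-3-phosphate dehydrogenase, had the opposite sign (0.33 ± 0.12).

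Nucleotide and amino acid genes split by gene. CPA1, the small subunit of the carbamoyl phosphate synthetase for arginine, read 8.52, 8.61, 8.63 and 8.82 in late libraries and 7.72, 7.72, 7.89 and 8.21 in middle libraries (0.76 ± 0.14, limma adjusted p = 0.0508). URA2, which starts pyrimidine synthesis from the same intermediate, differed by 0.59 ± 0.14 (limma adjusted p = 0.114) and ARG1 of arginine synthesis by 0.73 ± 0.22. IMD2, an enzyme of guanine nucleotide synthesis, differed by −0.75 ± 0.15 (limma adjusted p = 0.0606), and with 8% whole reads and close copies its value is uncertain. The list medians were 0.05 for 57 amino acid genes and 0.02 for 30 purine and pyrimidine genes, with 0 called in both.

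In the remaining lists TKL2 and HPF1 were the members called. They were 1 of 11 pentose phosphate genes (median 0.02) and 1 of 30 cell wall genes (median −0.01), where 0.331% of all genes rose. At an unadjusted p under 0.05 3 of the 30 wall genes were higher and 5 lower, against 10.5 and 6.61% of all genes. Late values lay wholly above middle values in 2 of the 30 and wholly below in 4, against 5.28 and 4.97% of all genes. Wall genes with lower late values included CWP1, a mannoprotein (−0.59 ± 0.15), UTR2, a chitin transglycosylase (−0.56 ± 0.14), and FKS1, the glucan synthase (−0.40 ± 0.13), while KTR2, a mannosyltransferase, had the opposite sign (0.49 ± 0.13). The highest medians of the rest were 0.17 for 8 Pho85 cyclins, 0.14 for 18 autophagy genes, 0.11 for 29 nitrogen catabolite genes and 0.10 each for 28 heat shock chaperones and 19 SAGA and ADA subunits. The windows overlapped for the cyclin median by library (0.10 to 0.23 late, −0.12 to 0.12 middle). They also overlapped for the autophagy median (0.10 to 0.16 late, −0.15 to 0.11 middle). No member of either list had separated windows. Iron and zinc regulons and translation factors stood at 0.07, 0.08 and 0.08. The lowest medians were −0.11 for 34 antioxidant and redox genes and −0.04 for 44 sterol and phospholipid genes. Fatty acid oxidation and trehalose and glycogen genes stood at −0.03 each, meiosis genes at −0.02 with 3 of 24 tested, and the TCA cycle and vacuolar proteases at −0.01 each.

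**Figure D5:**
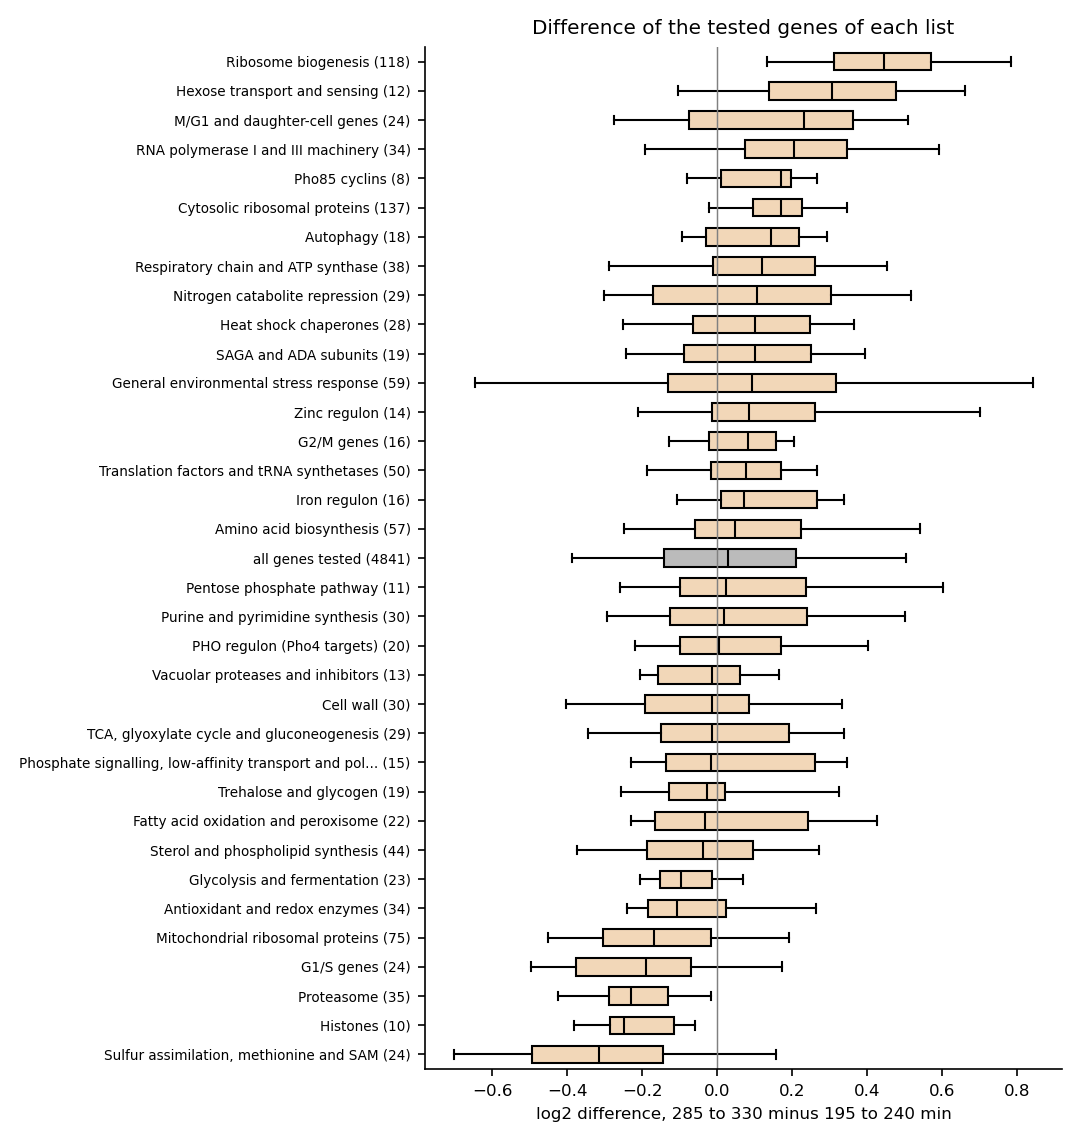
Difference of the tested genes of each list with at least 8 of them, and of all genes (grey), sorted by median (x axis, log2, late minus middle). Boxes span the quartiles with the median as a line, whiskers the 5th to 95th percentiles, and numbers in brackets are genes tested. Ribosome biogenesis (median 0.45) and sulfur genes (median −0.32) stand at the ends, and most boxes overlap that of all genes.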

How the data were processed

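RNA was sequenced in 25 libraries, and the authors deposited 1 table of log2 values with a column per library. Taken out of the log, every column has the same sum, that of RPM (reads scaled to 1000000 a library), so the deposited log2 values were used as log2 RPM. Reads were aligned with Bowtie to build R64, per the submitters' processing notes, and counter, annotation and strand use are not given in the sources used here. Low values are whole multiples of 1 step and start at 10 reads, so a missing value stands for fewer than 10 reads. Dividing by the step gave the reads per library, with values within 0.02 of a whole number called whole. Rows without a name (51) or sharing a name (2) were left out of 6701, which left 6648. In the RefSeq annotation of R64, 5915 of these names were found, 47 more through synonyms, and 686 were missing.

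The late minus middle contrast was fitted to the 8 libraries with limma 3.58.1 in R 4.3.3, with Benjamini-Hochberg adjustment over 4841 genes. Nothing in the labels says that the libraries came from separate cultures, so p-values reflect the scatter among neighbouring time points, and read numbers cover counting error only. On simulated data with 4765 genes the test recovered 84.4% of log2 changes of 1, 16.4% of 0.6 and 0% of 0.3, with 2 false calls. The simulated noise was drawn separately for each gene and library, whereas genes of a list can shift together in the real libraries. The 2 false calls therefore do not measure false calls in the real data. The members and the 35 gene lists were chosen with earlier results of these data known. Named were the called genes with a symbol, a value in all 8 libraries and separated windows (up to 15 each way), up to 5 such uncharacterised frames that rose, all measured PHO regulon genes, called list members and ADA2. Others named were chosen after their values were seen. Alternatives changed the scaling, filters, pseudocount, spread model, weights, depth and libraries.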

Additional observations from a re-analysis of the deposited data

Results flagged for a closer look

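In a group of 4 libraries, a value was noted when its gap to the nearest of the others as a share of the group's range passed Dixon's 95% limit, which chance meets in about 1 of 20 groups. This held for 16 of 377 groups of named genes and list medians. In late libraries the value at 330 min was lowest for PHO81 (8.07 log2 RPM, ratio 0.896) and that at 315 min for ATG8, the autophagosome coat protein (6.81, ratio 0.835). The value at 285 min was lowest for HXT1 (7.45, ratio 0.844) and for the median of the hexose list (0.10, ratio 0.852), and highest for CWP1 (7.38, ratio 0.839) and for TRX2, a thioredoxin (10.47, ratio 0.833). In middle libraries the value at 195 min was lowest for PHO5 (12.23, ratio 0.911), NOP2 (4.90, ratio 0.840), GRE1 (7.58, ratio 0.896), KTR2 (5.06, ratio 0.906) and the median of the hexose list (−0.13, ratio 0.909). The value at 210 min was highest for RPN4 (6.51, ratio 0.848) and lowest for PHO85 (5.97, ratio 0.841), that at 225 min was highest for PXA2, a peroxisomal fatty acid transporter subunit (5.31, ratio 0.834), and that at 240 min was highest for RPA14 (6.89, ratio 0.886) and lowest for STE2 (8.88, ratio 0.881).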

How the results depend on the processing

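The main counts were 16 genes higher, 2 lower, 6 higher by a log2 difference of at least 1 and 1 lower by it. The number lower was 6 after median centring, 6 after quantile normalization, and 5 both with missing values set to the floor and with log2(RPM + 1). The numbers higher and lower were 26 and 8 with values in all 8 libraries, 52 and 31 with a mean of at least 6 log2 RPM, 38 and 14 with log2(RPM + 20), 25 and 8 with array weights and 84 and 25 with a linear slope of time. They were 147 and 79 with a prior spread that follows the level and is robust, 136 and 66 with voom on the recovered reads, 0 and 0 in a fit of all 25 libraries (536 at an unadjusted p under 0.05) and 1 and 0 with 6 libraries a side. At a log2 difference of at least 1 the fit of all 25 and that with 6 a side called 0 in either direction, log2(RPM + 20) called 2 higher and 0 lower, the mean filter and thinning to the shallowest depth 0 lower, and the slope 2 lower. Leaving out each library in turn gave 0 to 25 higher, 0 to 4 lower, 0 to 9 higher by at least 1 and 0 to 2 lower by it. Of the 18 genes called, 10 of 17 tested were called after thinning and 16 in the slope. Over the genes named in the text no alternative turned a called difference round. Of 805 list medians, 26 moved beyond the spread between libraries. No paired analysis was possible because the labels give the libraries no replicate numbers. Differences under a log2 of 1 were seldom recovered on simulated data at this depth, so a gene that did not pass is not shown to be unchanged.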

Other observations

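Some genes outside the main groups came near the threshold or had separated windows, chosen after their values were seen and reported as values alone. PXA2, a subunit of the peroxisomal fatty acid transporter, read 5.59, 5.53, 5.84 and 5.82 log2 RPM in late libraries and 4.72, 4.68, 5.31 and 4.6 in middle libraries (0.87 ± 0.17 SE, limma adjusted p = 0.0559). ACH1, a mitochondrial CoA transferase, read 7.41, 7.11, 7.06 and 7.27 in late libraries and 6.49, 6.70, 6.88 and 6.51 in middle libraries (0.57 ± 0.14, limma adjusted p = 0.114). RNR4, a small subunit of ribonucleotide reductase, read 9.84, 9.80, 9.89 and 9.68 in late libraries and 9.06, 9.28, 9.53 and 9.56 in middle libraries (0.44 ± 0.14, limma adjusted p = 0.163), while RNR1, the large subunit, had the opposite sign. MIR1, the mitochondrial phosphate carrier, read 9.17, 9.35, 9.31 and 9.38 in late libraries and 8.49, 8.76, 8.88 and 9.17 in middle libraries (0.48 ± 0.15, limma adjusted p = 0.165). TRX2, a cytosolic thioredoxin, read 10.47, 10.28, 10.29 and 10.25 in late libraries and 10.91, 10.70, 10.58 and 10.65 in middle libraries (−0.39 ± 0.12, limma adjusted p = 0.163). The late values of PXA2, ACH1 and RNR4 lay wholly above the middle values and those of TRX2 wholly below.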
